A study of Mus musculus with 39 samples.

Results

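The genes described here are 38 genes of glutathione metabolism and of the antioxidant response driven by NRF2, chosen by a list of gene names, with no threshold on measured values and with earlier results of these data known. They are 38 of the 55416 genes in the count table, and each matched 1 identifier. They were read in the livers of 39 male mice, 1 RNA-seq library per mouse, in 4 groups that cross genotype with diet. The genotypes were CD163 knockout (CD163tm1(KOMP)Vlcg, an allele that every cell carries) and wildtype littermates, bred from heterozygous parents on C57BL/6NTac. From 6 weeks of age the mice were fed for 8 weeks, either chow with plain water (5 wildtype and 4 knockout mice) or a Western diet beside fructose-supplemented water (15 mice of each genotype). CD163 is a scavenger receptor of macrophages for haemoglobin bound to haptoglobin.

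NRF2, encoded by Nfe2l2, is a transcription factor that KEAP1 holds in the cytoplasm and sends to degradation. Oxidants and electrophiles modify KEAP1, and NRF2 then accumulates in the nucleus and binds antioxidant response elements near genes of glutathione synthesis, NADPH supply and detoxification. Glutathione is the main small thiol of the hepatocyte, glutathione transferases attach it to electrophiles such as products of lipid peroxidation, and peroxidases, peroxiredoxins and catalase remove peroxides.

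Library totals lay between 8578865 and 30438808 counts, with a median of 14573193. Levels are given as CPM, read counts scaled to the size of the library. On chow, the targeted gene Cd163 had a mean level of 8.74 ± 3.89 CPM (SD, n = 5) with the wildtype allele and 0.601 ± 0.138 CPM (n = 4) without it. On Western diet these means were 8.31 ± 4.27 and 0.354 ± 0.209 CPM (n = 15 each). Hepatocyte markers were high in every library, with a summed level of 42820 to 80240 CPM over 7 genes. Against 542 genes outside the list that differed at least 2-fold between the diets in the other 35 libraries, 4 libraries fell on the side of the opposite diet. With the chow mean of those 35 set to 0 and the mean of their Western diet livers set to 1, the place of wildtype chow A was 0.912, knockout chow D at 0.99, wildtype Western diet A at 0.219 and knockout Western diet M at 0.169. The other chow libraries lay between -0.0623 and 0.1, and the other Western diet libraries between 0.816 and 1.25. All libraries stayed under their labels, and counts are also given without these 4.

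Of the 38 members, 37 had enough reads to be tested. Slc7a11, the cystine importer that feeds glutathione synthesis, was not: it had 49 reads over all libraries and 0 reads in 4 of 9 chow and 20 of 30 Western diet livers. Per kilobase of transcript, the wildtype chow livers held most Mgst1 (3418 ± 700 CPM per kb, SD, n = 5), followed by Gstp1 (2522 ± 847), Gpx1 (1995 ± 396), Sod1 (1765 ± 400.9), Cat (1151 ± 116), Gsta3 (1132 ± 137) and Gstm1 (951 ± 375). Neighbours in this order overlapped within their SD, other than Sod1 and Cat. At the other end stood Nqo1 (2.69 ± 0.624 CPM per kb), G6pdx (1.85 ± 0.412) and Gsta1 (0.508 ± 0.371). By these values the transferases alone spanned the whole range of tested members, from the microsomal Mgst1 at the top to Gsta1 at the bottom. Measured in short windows, Gsta1 shares 89.7% of its transcript with other genes, and Gstp1 shares 62.3% with Gstp2. Sod1 and Gstm1 share 23.1% each, and Mgst1 shares 0%. Counts of genes with shared sequence may be split with those other genes. The values per kilobase were not corrected for this, so the place of Gsta1 at the bottom is uncertain.

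The promoters of members that moved with diet are shown for their sequence around the gene start. Each window runs from 250 bases before to 50 bases after the start, taken from RefSeq on GRCm38.p6. Srxn1 (chr2:152105274-152105573, plus strand) was higher on Western diet, Gsta2 (chr9:78347096-78347395, minus strand) and Mgst3 (chr1:167393792-167394091, minus strand) were lower, and Gclm (chr3:122245307-122245606, plus strand), a known NRF2 target of glutathione synthesis, did not pass the diet test. Capitals mark the core of the antioxidant response element, TGACNNNGC, on either strand:
Srxn1: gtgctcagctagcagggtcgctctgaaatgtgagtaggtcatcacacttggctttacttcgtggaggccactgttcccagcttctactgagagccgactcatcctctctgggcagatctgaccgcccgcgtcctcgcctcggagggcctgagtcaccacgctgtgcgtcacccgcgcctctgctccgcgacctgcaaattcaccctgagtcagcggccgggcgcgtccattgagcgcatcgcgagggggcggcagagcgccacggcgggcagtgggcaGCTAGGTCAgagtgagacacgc
Gclm: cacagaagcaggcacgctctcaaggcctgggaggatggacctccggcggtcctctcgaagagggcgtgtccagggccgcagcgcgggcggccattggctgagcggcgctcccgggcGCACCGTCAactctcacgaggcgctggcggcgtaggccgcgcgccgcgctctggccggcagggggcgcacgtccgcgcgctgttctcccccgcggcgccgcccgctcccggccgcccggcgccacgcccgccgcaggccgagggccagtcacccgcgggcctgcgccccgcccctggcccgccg
Gsta2: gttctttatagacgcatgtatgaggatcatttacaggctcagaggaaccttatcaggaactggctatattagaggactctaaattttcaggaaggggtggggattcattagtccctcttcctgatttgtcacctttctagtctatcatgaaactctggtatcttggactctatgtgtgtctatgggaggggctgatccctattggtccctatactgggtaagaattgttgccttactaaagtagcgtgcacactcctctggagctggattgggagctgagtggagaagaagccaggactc
Mgst3: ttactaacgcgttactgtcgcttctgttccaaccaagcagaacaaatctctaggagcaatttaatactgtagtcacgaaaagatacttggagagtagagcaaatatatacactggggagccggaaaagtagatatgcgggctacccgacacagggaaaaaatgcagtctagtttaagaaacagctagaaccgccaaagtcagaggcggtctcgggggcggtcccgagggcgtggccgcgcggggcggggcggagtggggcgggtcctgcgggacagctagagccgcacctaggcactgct
In Srxn1 and Gclm the match lies on the opposite strand, from base 279 and base 117 of the window. The Srxn1 match lies after the gene start and the Gclm match before it. Only exact matches are in capitals, so the stretch tgagtcagc earlier in the Srxn1 window stays in small letters. Windows were at hand for 33 members, not for Gclc, Gsr, Gsta4, Gstt2 and Prdx6, and 8 of them (24.2%) held the core: G6pdx, Gclm, Gsta3, Mgst1, Nfe2l2, Prdx1, Sod1 and Srxn1. Over all 27025 promoters of the same length, 3369 (12.5%) held it. Of the members that passed the diet test, Srxn1 held it and Gsta2, Gstm1, Gstm6 and Mgst3 did not. The core can overlap the AP-1 site TGACTCA, as it does in Prdx1, where the match reads GCTGAGTCA. A match in this window is a description of the letters and says nothing of elements further away.

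The diet comparison asked how the liver transcriptome on Western diet differed from that on chow, here as the mean of the difference in wildtype and in knockout mice. A group of glutathione transferases was lower on Western diet: Gsta2, Gsta4, Gstm1, Gstm6, Gstt2 and Mgst3 fell, by 1.65-fold to 2.16-fold. Srxn1 and Prdx6, which act on peroxiredoxins and peroxides, rose by 1.31-fold and 1.17-fold. The other 29 tested members did not pass edgeR's quasi-likelihood test with Benjamini-Hochberg adjustment over 15296 genes at a threshold of 0.05. The 6 members that fell are 16.2% of those tested, against 6.77% of all tested genes, and the 2 that rose are 5.41%, against 7.84%, while 14.6% of all genes were called in either direction. The median log2 fold change over the members was -0.02, and over all genes it was -0.00. At an unadjusted p under 0.05 in edgeR stood 16 of the 37. The share of all genes at that unadjusted threshold is not given here, so this count has no background. In bulk tissue, fewer cells of a type and less RNA per cell cannot be told apart.

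Gsta4 conjugates hydroxynonenal, a product of lipid peroxidation. In the wildtype chow libraries A to E it was at 20.4, 60.7, 68.6, 69.3 and 33.8 CPM, and in the knockout chow libraries A to D at 64.8, 45.9, 77.0 and 33.7 CPM. On Western diet the lowest, median and highest values were 14.0, 20.9 and 59.0 CPM in wildtype and 13.7, 25.3 and 64.4 CPM in knockout mice. Of 30 Western diet livers, 27 were under the chow mean, but the groups overlapped: wildtype chow A lay among the Western diet libraries, and wildtype Western diet A and knockout Western diet F among those on chow. On the log2 scale the diet difference was -1.06 (SE 0.22), with an edgeR adjusted p of 0.00237. None of its sequence is shared with another gene in windows of 50 bases.

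Gsta2, another alpha-class transferase, was at 3.84, 13.5, 17.1, 22.7 and 4.47 CPM in wildtype chow A to E and at 16.2, 9.84, 17.3 and 9.17 CPM in knockout chow A to D. On Western diet it ran from 2.40 through a median of 4.18 to 14.1 CPM in wildtype and from 1.85 through 4.67 to 22.2 CPM in knockout mice. The wildtype chow libraries A and E were near the Western diet medians, and knockout Western diet F was close to the highest chow library. This gave a log2 fold change of -1.11 (SE 0.31), with an edgeR adjusted p of 0.0151. Its transcript shares 64.2% of its 50-base windows with other genes, 44.8% with Gsta1, so its counts may be split with those genes. Leaving out knockout chow C or wildtype chow D took the call away.

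The mu-class transferases sit in a cluster of near copies on chromosome 3. Gstm1 was at 453, 1586, 1445, 1589 and 1057 CPM in wildtype chow A to E and at 1537, 1367, 1432 and 869 CPM in knockout chow A to D. On Western diet it ran from 398.1 through 610 to 1310 CPM in wildtype and from 344 through 861 to 1336 CPM in knockout mice, and 25 of 30 libraries were below the chow mean. The groups overlapped through wildtype chow A, lower than the Western diet medians, and through wildtype Western diet A and knockout Western diet F at the top of their groups. Gstm1 thus had a log2 fold change of -0.72 (SE 0.22), with an edgeR adjusted p of 0.0226. It shares 23.1% of its 50-base windows with other genes, and Gstm3 28.8%, so reads may be split between copies. The call was lost without any of knockout chow A, B and C or wildtype chow D.

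Gstm6 was at 68.1, 157, 173, 185 and 80.0 CPM in wildtype chow A to E and at 174, 184, 120 and 89.6 CPM in knockout chow A to D. On Western diet it ran from 40.1 through 62.4 to 186 CPM in wildtype and from 38.6 through 81.9 to 142 CPM in knockout mice. Only 2 of 30 libraries were above the chow mean, and these, wildtype A and knockout M, are among the 4 libraries on the side of the opposite diet. The fitted log2 difference was -0.76 (SE 0.22), with an edgeR adjusted p of 0.0174, and the call was lost without knockout chow B. Gstm3, a further mu-class member, had a change of about the same size as Gsta2, -1.07 (SE 0.41, edgeR adjusted p = 0.071), with far more spread, and did not pass. Knockout Western diet F alone held 182 CPM of Gstm3, against a median of 20.4 CPM in its group.

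Gstt2, a theta-class transferase, was at 28.4, 65.1, 91.9, 93.1 and 41.0 CPM in wildtype chow A to E and at 67.8, 107, 82.2 and 57.5 CPM in knockout chow A to D. On Western diet it ran from 11.2 through 32.8 to 77.2 CPM in wildtype and from 13.6 through 36.1 to 121 CPM in knockout mice. The groups overlapped and 27 of 30 Western diet libraries lay below the chow mean. Its log2 fold change of -0.85 (SE 0.28) had an edgeR adjusted p of 0.0388. This was the weakest of the 8 calls, lost when any of knockout chow A, B or C or wildtype chow B, C or D was left out.

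Mgst3 is a membrane-bound transferase with peroxidase activity. It was at 2.90, 17.3, 16.9, 22.5 and 15.1 CPM in wildtype chow A to E and at 20.6, 12.7, 14.9 and 10.4 CPM in knockout chow A to D. On Western diet it ran from 2.34 through 6.52 to 17.3 CPM in wildtype and from 2.25 through 5.16 to 12.7 CPM in knockout mice. Of the 30 Western diet libraries, 29 were below the chow mean, and wildtype chow A was among the lowest libraries of all groups. For Mgst3 the log2 fold change came to -1.08 (SE 0.27), with an edgeR adjusted p of 0.00782, and leaving out any single chow library did not remove the call. Its microsomal relative Mgst1, at 4005 ± 622 CPM (SD, n = 9) on chow and 4268 ± 588 CPM (n = 30) on Western diet, did not pass (0.09, SE 0.08, edgeR adjusted p = 0.485).

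Srxn1 encodes sulfiredoxin, which repairs overoxidised peroxiredoxins and is a known NRF2 target. It was at 36.3, 31.7, 37.5, 40.8 and 38.7 CPM in wildtype chow A to E and at 38.2, 29.9, 35.9 and 52.5 CPM in knockout chow A to D. On Western diet it ran from 31.0 through 45.4 to 78.2 CPM in wildtype and from 28.4 through 51.9 to 84.6 CPM in knockout mice. On Western diet 27 of 30 libraries exceeded the chow mean, and the groups overlapped, with knockout chow D the highest chow library and among the 4. Its log2 fold change was 0.39 (SE 0.13), with an edgeR adjusted p of 0.034, a call lost without any of knockout chow A, B and C or wildtype chow B and C.

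Prdx6 encodes a peroxiredoxin that reduces phospholipid hydroperoxides. It was at 627, 524, 572, 595 and 473 CPM in wildtype chow A to E and at 556, 510, 476 and 620 CPM in knockout chow A to D. On Western diet it ran from 531 through 643 to 716 CPM in wildtype and from 509 through 679 to 731 CPM in knockout mice. On Western diet 28 of 30 libraries exceeded the chow mean and 19 exceeded every chow library. The 2 highest chow libraries, wildtype A and knockout D, are among the 4. The change was small, a log2 fold change of 0.23 (SE 0.06, edgeR adjusted p = 0.0117), and the call was lost without knockout chow B or C.

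**Figure D1:**
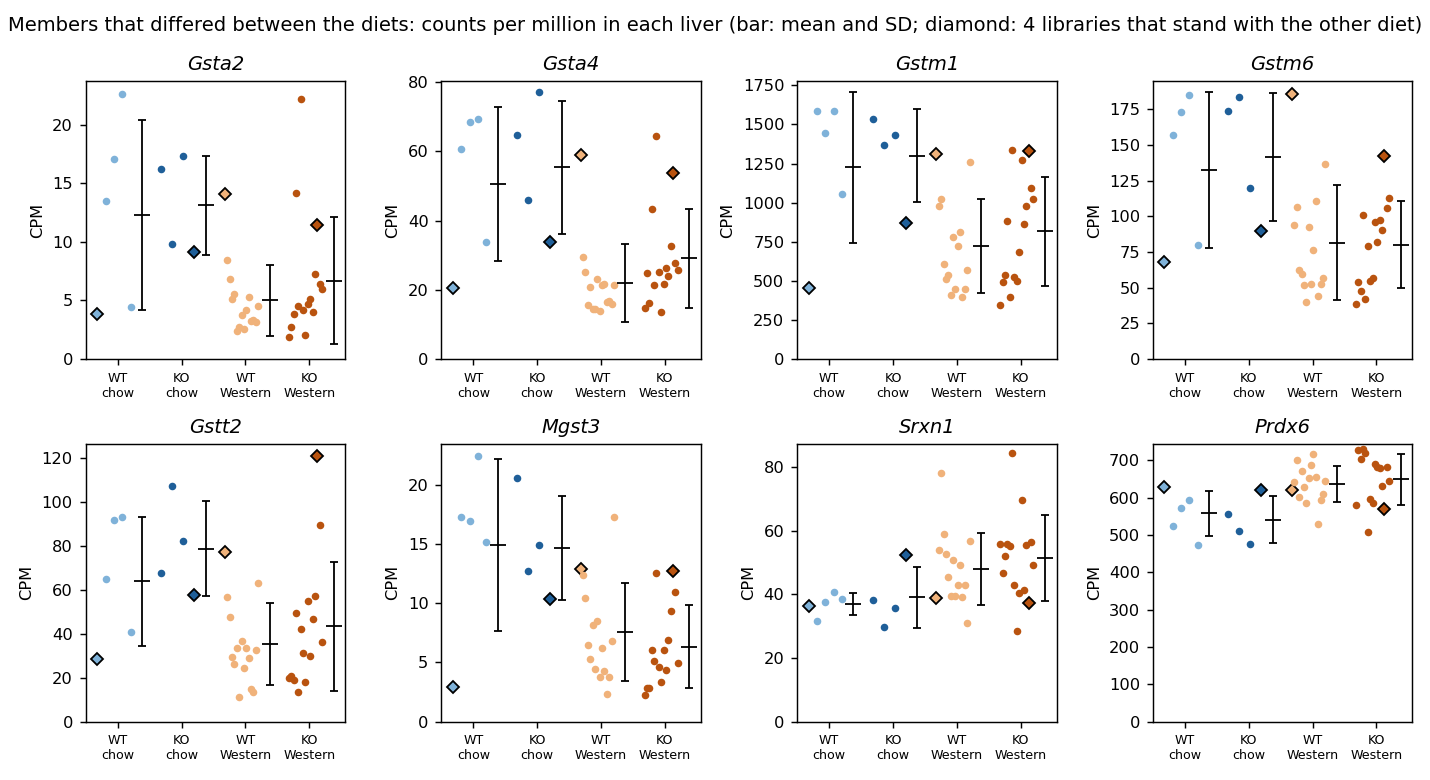
CPM (linear axes from 0) of the 8 members that passed the diet test, 1 point per liver, in wildtype (WT) and knockout (KO) mice on chow or Western diet, with the mean and SD of each group as a bar. Diamonds mark the 4 libraries on the side of the opposite diet, for example wildtype chow A with Mgst3 at 2.90 CPM.

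Without the 4 libraries, the diet comparison called 15 members: all 8 above and 7 more. The 5 that were higher were Nfe2l2, Keap1, Srxn1, Gstz1 and Prdx6, and the 10 that were lower were Txn1, Gsta2, Gsta4, Gstm1, Gstm3, Gstm6, Gstp1, Gstt2, Mgst3 and Sod1. Over all genes, 16% were then called higher and 13.9% lower, so the members higher (13.5%) stood near the background and those lower (27%) above it. The 4 were picked by genes that differ between the diets, so the larger counts without them are no independent support. Without them, Gsta4 had a log2 fold change of -1.37 (SE 0.19, edgeR adjusted p = 1.73e-06), and 26 of the remaining 28 Western diet libraries lay below every remaining chow library. Mgst3, at -1.36 (SE 0.26, edgeR adjusted p = 0.000212), lay below every remaining chow library in 27 of 28.

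**Figure D2:**
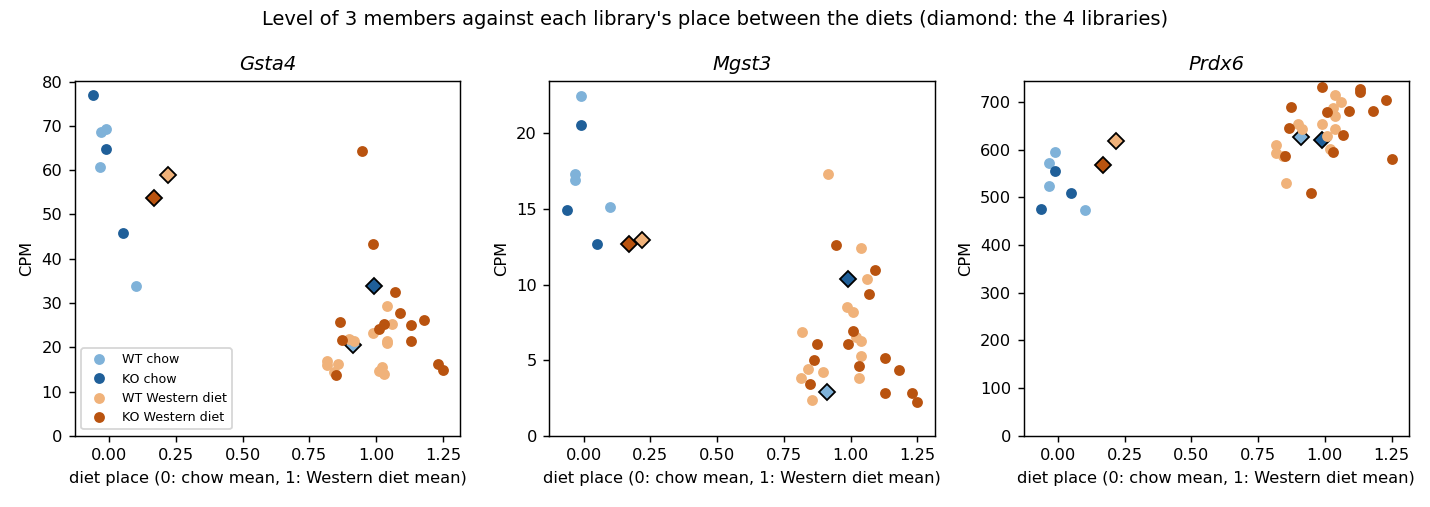
CPM of Gsta4, Mgst3 and Prdx6 (y axes from 0) against each library's place between the diets, read from 542 other genes (x axis, 0 for the chow mean and 1 for the Western diet mean of the 35 other libraries). Points are coloured by group, and diamonds mark the 4 libraries. For Gsta4, wildtype chow A (20.4 CPM) lies among the Western diet livers and wildtype Western diet A (59.0 CPM) among the chow livers, while knockout chow D (33.7 CPM) is level with the lowest of the other chow libraries, wildtype chow E (33.8 CPM).

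Several members lay near the threshold without passing it in the fit of all libraries. The regulators Nfe2l2 and Keap1 had log2 fold changes of 0.37 (SE 0.15, edgeR adjusted p = 0.0808) and 0.16 (SE 0.07, edgeR adjusted p = 0.0853). Nfe2l2 was at 91.3 ± 23.8 CPM (SD, n = 9) on chow and 119 ± 34.2 CPM (n = 30) on Western diet. Txn1, thioredoxin, stood at -0.18 (SE 0.07, edgeR adjusted p = 0.0675), Gstp1, the pi-class transferase, at -0.58 (SE 0.23, edgeR adjusted p = 0.0738), and Gstz1, an enzyme of tyrosine breakdown, at 0.15 (SE 0.06, edgeR adjusted p = 0.071). Gstp1 shares 62.3% of its 50-base windows with Gstp2, so its counts may be split between the genes.

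The other roles held no call in the fit of all libraries. Of the genes of glutathione synthesis and recycling, Gclc and Gclm, the catalytic and modifier subunits of the rate-limiting ligase, had log2 fold changes of 0.20 (SE 0.10) and -0.09 (SE 0.07), and Gss, which adds the glycine, 0.06 (SE 0.08). Gsr, which reduces oxidised glutathione, stood at -0.09 (SE 0.06). Genes of the pentose phosphate pathway, which supplies NADPH, ran from 0.01 (SE 0.19) for G6pdx to 0.30 (SE 0.15) for Pgd. Taldo1 and Tkt lay between them, and edgeR's adjusted p for the 4 ran from 0.117 to 0.971. Nqo1, a quinone reductase and classical NRF2 target, was at 4.25 ± 1.13 CPM (SD, n = 9) on chow and 3.61 ± 1.59 CPM (n = 30) on Western diet, a log2 fold change of -0.23 (SE 0.21, edgeR adjusted p = 0.476). Catalase stood at 2982 ± 266 and 2982 ± 384 CPM, a log2 fold change of 0.00 (SE 0.07). An adjusted p above the threshold does not show that a level was the same.

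**Figure D3:**
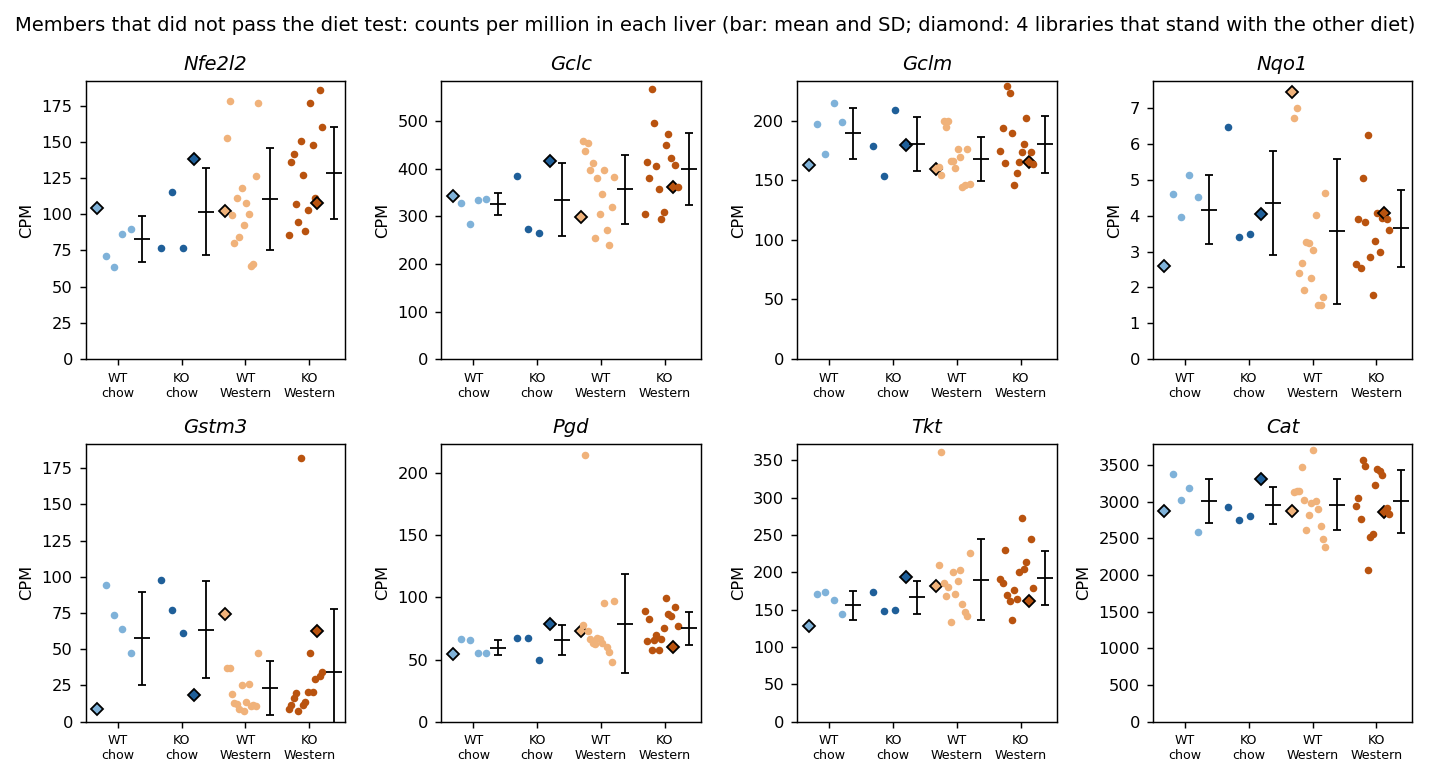
CPM (linear axes from 0) of 8 members that did not pass the diet test in the fit of all libraries, 1 point per liver, with the mean and SD of each group as a bar and diamonds for the 4 libraries on the side of the opposite diet. Knockout Western diet F stands apart for Gstm3 at 182 CPM, and wildtype Western diet C for Pgd at 215 CPM and Tkt at 361 CPM.

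Within each genotype the diet comparison had less to call. In wildtype mice, Gsta4 was lower (-1.20, SE 0.30, edgeR adjusted p = 0.0414) and no other member passed, against 0.771% of all genes called higher, 0.615% lower and 1.39% in either direction. The call was lost without any of wildtype chow B, C, D and E. In those fits 0%, 0.0327%, 0.0196% and 0.0722% of all genes were lower, in that order. Without wildtype chow A, 3 members were lower, against 1.87% of all genes in that fit. Gsta2 (-1.28, SE 0.42), Mgst3 (-0.98, SE 0.37) and Gstm1 (-0.77, SE 0.29) followed, with edgeR adjusted p of 0.102, 0.158 and 0.167. In knockout mice no member passed, against 0.00654% of all genes at the adjusted threshold. There 9 members had an unadjusted p under 0.05 in edgeR, a count with no share of all genes beside it. DESeq2 called 1, Prdx6 (0.27, adjusted p = 0.047). The smallest edgeR p values belonged to Mgst3 (-1.19, SE 0.39), Prdx6 (0.26, SE 0.09), Gsta4 (-0.92, SE 0.32) and Gstm6 (-0.82, SE 0.32), with adjusted p from 0.134 to 0.169. Without the 4 libraries, 0 members were higher and 7 lower in wildtype mice, against 4.26% and 4.4% of all genes, and in knockout mice 2 were higher and 5 lower, against 9.69% and 7.5%.

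**Figure D4:**
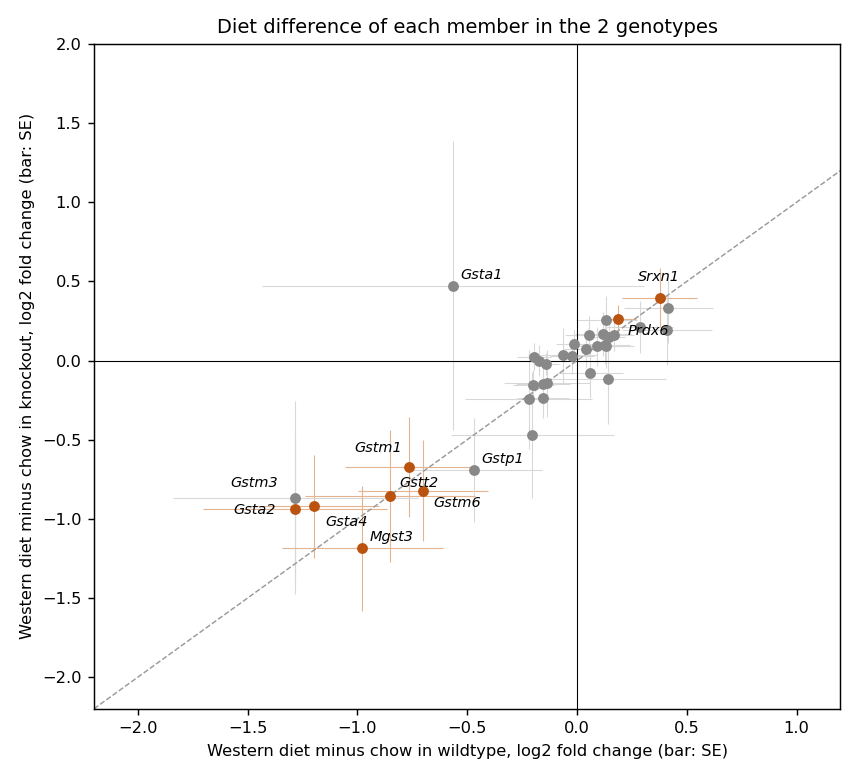
Log2 fold change of Western diet against chow for each of the 37 tested members, in wildtype mice (x axis) and in knockout mice (y axis), with SE as bars and equality as a dashed line. Members called in the comparison over both genotypes are in orange, from Gsta2 at -1.28 and -0.94 to Srxn1 at 0.38 and 0.40.

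The difference of the diet effect between genotypes was tested itself, as an interaction, and no member passed (0% of all genes were called), nor did any have an unadjusted p under 0.05 in edgeR, and DESeq2 called none. Gsr came nearest, at 0.22 (SE 0.11), with 110 ± 11.9 CPM (SD, n = 5) in wildtype chow, 98.3 ± 15.7 CPM (n = 4) in knockout chow, and 95.7 ± 7.54 and 99.9 ± 9.56 CPM (n = 15 each) in wildtype and knockout Western diet livers. Gclm stood at 0.17 (SE 0.13), Prdx1, a cytosolic peroxiredoxin, at 0.12 (SE 0.09) and Taldo1, transaldolase, at 0.12 (SE 0.12), all with an edgeR adjusted p of 1. For Gsta4 the interaction was 0.28 with an SE of 0.47, so these data hold a wide range of differences.

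The genotype comparison on Western diet asked what loss of CD163 did under that diet, and no member passed. Cd163 was the only gene of 15296 called (0.00654%), no member had an unadjusted p under 0.05 in edgeR, and DESeq2 called no member. The 4 members with the smallest p were Gsta4 (0.41, SE 0.22), Gclc (0.16, SE 0.10), Gclm (0.10, SE 0.06) and Gsta1 (0.91, SE 0.59), each with an edgeR adjusted p of 0.943. Gclc ran from 240 through 380 to 460 CPM in wildtype and from 294 through 405.2 to 569 CPM in knockout mice, with groups that overlapped over most of their range. Gclm ran from 144 through 166 to 200 CPM in wildtype and from 146 through 174 to 229 CPM in knockout mice, in the same overlapping way. The value for Gsta1 rested on knockout Western diet F, which held 150 of the 190 reads of its group, and 89.7% of its 50-base windows are shared with other genes. Without that library Gsta1 had too few reads to be tested and Gsta4 stood at 0.27 (SE 0.21). In the fit without the 4 libraries, Gsta4 stood at 0.50 (SE 0.18, edgeR unadjusted p = 0.00887, adjusted p = 0.762), and so was not called.

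On chow no member passed either, with 0.00654% of all genes called, none at an unadjusted p under 0.05 in edgeR, and none in DESeq2. The 4 with the smallest p were Gsr (-0.16, SE 0.10), Gpx1, the cytosolic glutathione peroxidase (-0.18, SE 0.14), Nfe2l2 (0.30, SE 0.26) and Prdx1 (-0.09, SE 0.08), with an edgeR adjusted p of 1 for each. Gpx1 had a mean level of 2139 ± 424.6 CPM (SD, n = 5) in wildtype livers and 1892 ± 466 CPM (n = 4) in those of knockouts. Nfe2l2 was at 104, 71.3, 63.5, 86.4 and 89.6 CPM in wildtype chow A to E and 76.9, 116, 76.8 and 138 CPM in knockout chow A to D, and the highest library of each genotype, wildtype A and knockout D, is among the 4. Knockout and wildtype levels overlapped for all 37 members on either diet. Overlap over all genes was not counted, so this does not set the members apart from other genes. Without the 4 libraries, no member was called by genotype on either diet, against 0.00647% of all genes on each.

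**Figure D5:**
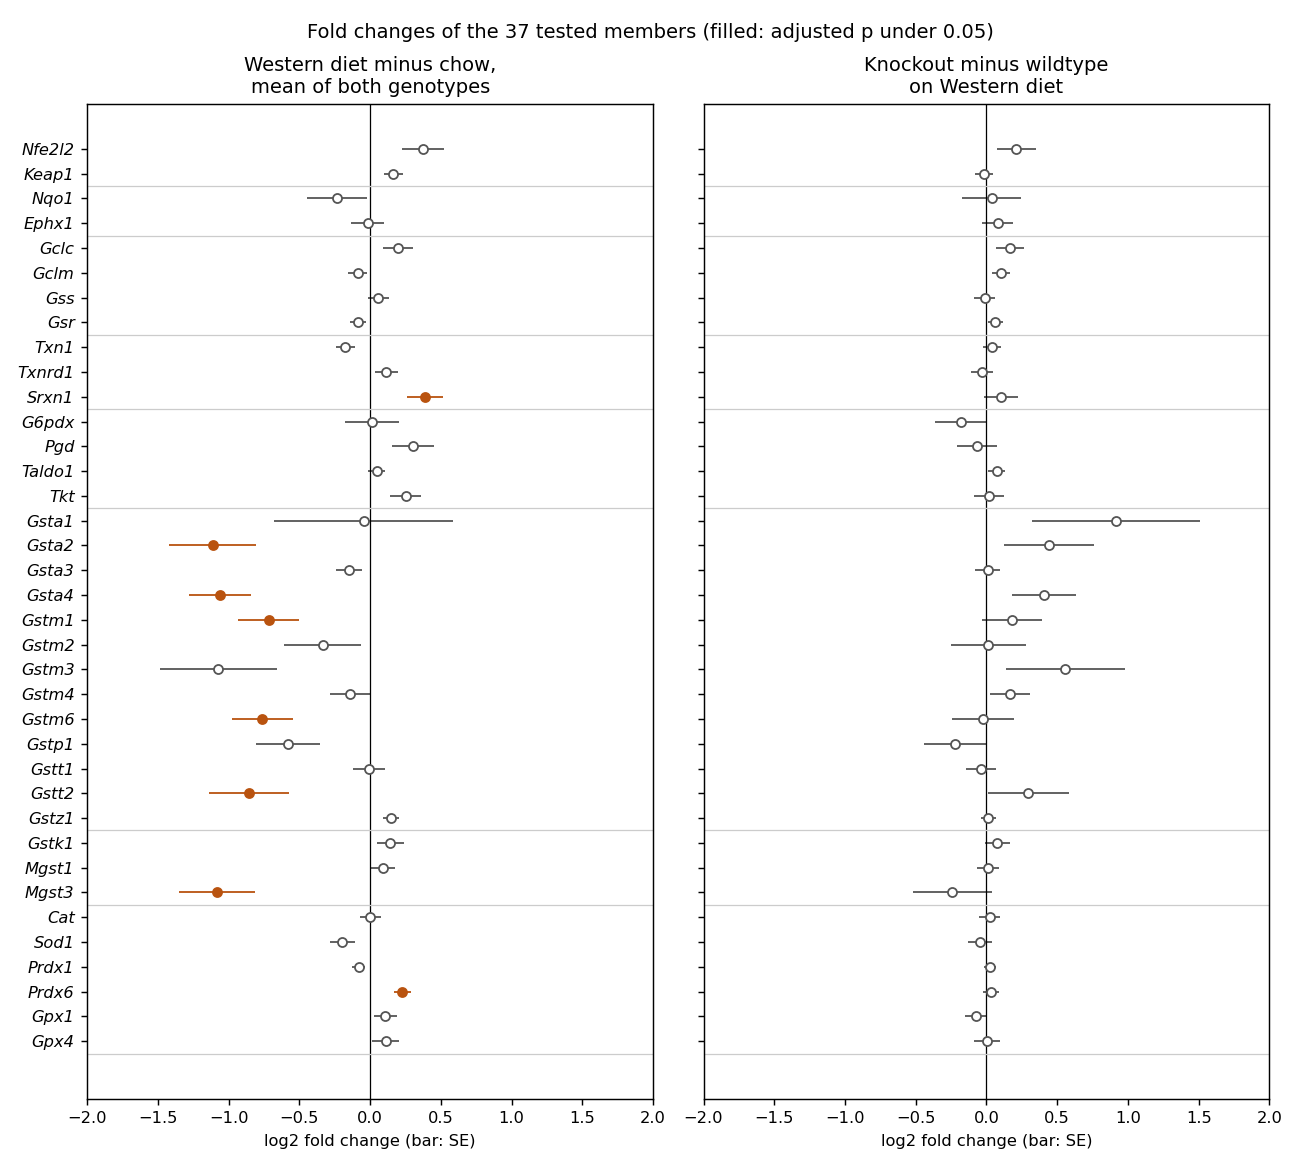
Log2 fold changes with SE as bars for the 37 tested members, grouped by role with grey lines between roles, for Western diet against chow over both genotypes (left) and knockout against wildtype on Western diet (right). Filled orange points passed an adjusted p of 0.05: 6 transferases to the left of 0 and Srxn1 and Prdx6 to the right on the left panel, none on the right panel.

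Levels varied between livers of a group along with the library. Among wildtype chow libraries, D held the highest level of 20 members and A the lowest of 20. Wildtype chow A is among the 4 libraries on the side of the opposite diet. In the knockout Western diet group, F was the highest for 9 members, among them Gsta1, Gsta2, Gsta4, Gstm1, Gstm3 and Nqo1. In the wildtype Western diet group, A was the highest for 10, mostly transferases, and C for 8, among them G6pdx, Pgd, Taldo1 and Tkt. Wildtype Western diet A is also among the 4. None of these counts was made over all genes, so they do not set the members apart from other genes. Leaving out knockout Western diet F gave 3 members higher and 7 lower with diet, against 7.77% and 7.05% of all genes. Leaving out wildtype Western diet C gave 2 and 6, against 7.04% and 6.13%.

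In 12 correlations of 6 gene pairs over the Western diet livers of each genotype, Nqo1 followed Gstm3 in wildtype mice (r = 0.843, permutation p = 7e-05, adjusted p = 0.00084; rho = 0.782, adjusted p = 0.0087; n = 15), with r = 0.758 without the libraries A and C, farthest from the median. In knockout mice r was 0.625 (permutation p = 0.0145, adjusted p = 0.0582) and rho 0.618 (adjusted p = 0.0491), with r = 0.422 without H and F. Gclc followed Gclm in knockout mice (r = 0.775, permutation p = 0.0007, adjusted p = 0.0042; rho = 0.764, adjusted p = 0.0087), with r = 0.637 without D and H, and in wildtype mice r was 0.491 (permutation p = 0.0645, adjusted p = 0.0967) and rho 0.489 (adjusted p = 0.151). The difference between genotypes was not tested. G6pdx and Pgd gave r = 0.653 in wildtype mice (permutation p = 0.0304, adjusted p = 0.073), which fell to 0.0223 without C and E and so rests on those libraries, with rho at 0.0929 (adjusted p = 0.744). In knockout mice that pair had r = 0.218 and rho = 0.2, and neither passed. Gsta1 and Gsta2, which share sequence, passed by rank alone in wildtype mice (rho = 0.672, permutation p = 0.0072, adjusted p = 0.0288), where r was 0.503 (adjusted p = 0.0967). In knockout mice they had r = 0.594 (adjusted p = 0.0611) and rho = 0.476 (adjusted p = 0.151) by the permutation test. Without the libraries farthest from the median, r was 0.52 in wildtype mice (without O and B) and 0.245 in knockout mice (without F and O). Gsta1 had 311 reads over all libraries, so its levels rest on few reads per liver. Srxn1 and Txnrd1 (r = 0.144 in wildtype and 0.39 in knockout mice) and Gpx1 and Prdx6 (r = -0.495 and 0.338) did not pass in either genotype.

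Of a wider list of 82 other genes of the pathway, 77 were tested, and the diet comparison called 6 higher and 7 lower, with 64 that did not pass, which is 7.79% and 9.09% against 7.84% and 6.77% of all genes. The median log2 fold change over the list was -0.01. Cth, which makes cysteine for glutathione, was lower (366 ± 119 CPM, SD, n = 9, on chow and 210 ± 62.9 CPM, n = 30, on Western diet, edgeR adjusted p = 0.00114). Glrx2, a mitochondrial glutaredoxin, was lower (27.3 ± 2.19 and 23.3 ± 1.803 CPM, edgeR adjusted p = 0.0027), and Glrx5, which carries iron-sulfur clusters, was higher (150 ± 25.7 and 198 ± 27.4 CPM, edgeR adjusted p = 0.00237). Ephx2, the soluble epoxide hydrolase, was higher (edgeR adjusted p = 0.00884), as was Aldh3a2, which oxidises fatty aldehydes (edgeR adjusted p = 0.0153), and Txnrd3, a thioredoxin reductase, was lower (edgeR adjusted p = 0.0133). The other calls were Chac1, Msra and Selenop, higher, and Hagh, Gsto1, Cbr1 and Akr1b8, lower.

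Markers of other cell types were read beside the diet comparison. Of the red blood cell markers, 4 of 6 were higher on Western diet (Hba-a1, Hbb-bs, Hbb-bt and Alas2), and the summed level over the list was 78.8 to 117 CPM on chow and 96.0 to 251 CPM on Western diet. Calls were 1 of 6 for Kupffer cells (Cd5l, higher), 1 of 5 for sinusoidal endothelium (Clec4g, lower), 1 of 6 for stellate cells (Lrat, higher) and 2 of 6 for pericentral hepatocytes (Glul and Rhbg, higher), and none for recruited macrophages, neutrophils, bile duct, acute phase or general hepatocyte markers. Of all tested genes, 14.6% were called in either direction. Lists this short cannot set 1 or 2 calls apart from that share. The acute phase list, Saa1, Saa2, Saa3, Lcn2, Orm2 and Hp, summed to 9533 CPM in wildtype chow A and 17400 CPM in wildtype chow E. In these libraries Gsta2 and Gsta4 were the lowest of that group, and wildtype chow A is also among the 4 libraries on the side of the opposite diet. The acute phase sum also stood at 11690 to 35340 CPM in 6 livers of the Western diet groups, 5 wildtype and 1 knockout. Their Gsta2 and Gsta4 levels are not set beside it here, and a relation of these genes with the acute phase level was not tested. With the acute phase level as a covariate, chosen after the data were seen, Gsta4 (-0.87, edgeR adjusted p = 0.00525), Gstm1, Gstm6, Mgst3, Srxn1 and Prdx6 kept their call, whereas Gsta2 (-0.81, edgeR adjusted p = 0.0533) and Gstt2 (-0.61, edgeR adjusted p = 0.058) did not. The part of the red blood cell and other marker levels in the diet differences was not tested.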

How the data were processed

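RNA from snap-frozen livers was sequenced, 1 library per mouse. The authors deposited raw counts per gene. Per the submitters' processing notes, the tools were STAR 2.7.8a, featureCounts 2.0, FastQC and MultiQC, with the build GRCm39. The annotation release and strand setting are not given in the sources used here, so antisense reads may be counted with a gene. Of 55416 identifiers, 52083 were given symbols, from GENCODE M21.

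Counts were filtered with filterByExpr of edgeR 4.0.16 (minimum count 10, minimum total 15), scaled by TMM and fitted in R 4.3.3 by edgeR's quasi-likelihood functions, each group having its own term. The diet effect over both genotypes is the mean of both diet contrasts. The SE is the log2 fold change over the root of F, p values are Benjamini-Hochberg adjusted, and CPM values use TMM-scaled totals. Correlations used log2 CPM (prior count 2) and 2-sided permutation tests with 100000 resamples (Python 3.11.15, scipy 1.17.1). Shared sequence was counted in 50-base windows of 1 principal transcript per gene. The first listed promoter of a gene was used.

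The members and lists were chosen with earlier results of these data known. Named genes are members past the threshold and the 4 with the smallest p per comparison, and up to 6 called genes of the wider list. Others were chosen after their values were seen. Mouse letters do not pair the libraries: same-letter libraries had a mean correlation of -0.0104 on Western diet and -0.0656 on chow. Alternatives were DESeq2 1.42.0, RLE size factors, no filter, the letter as a block, each chow library left out, and wildtype Western diet L and M, the closest pair (chi-square 3.77 per gene against 9.63 for the next), summed. Chosen after seeing the data were the fits without the 4 libraries named above, without knockout Western diet F, without wildtype Western diet C, and with the acute phase level. The fit was tested on simulated data.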

Additional observations from a re-analysis of the deposited data

Results flagged for a closer look

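Gclc in wildtype chow C, at 285 CPM, stood below the other 4 libraries of its group, whose nearest was at 328 CPM and whose highest was at 344 CPM, a gap of 0.728 of the group's range. Of 74 pairs of member and chow group searched, this was the only 1 set apart in this way, and chance alone sets apart about 1 in 20. The gene did not pass in any comparison.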

How the results depend on the processing

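Of the 8 diet calls over both genotypes, Gsta4 and Mgst3 passed in 17 of 18 alternatives, Gstm6 and Prdx6 in 16, Gsta2 in 14, Gstm1 and Srxn1 in 12 and Gstt2 in 9, and none changed sign. The cause of the changes below was not tested. With single libraries left out, members higher ran from 0 (without knockout chow B or C) to 5 (without knockout chow D), members lower from 3 (without knockout chow B or C or wildtype chow D) to 10 (without knockout chow D), and all genes called from 829 to 3505, against 2, 6 and 2234. Without knockout chow A or wildtype chow B or C, 1 member was higher. In wildtype mice, members lower ran from 0 to 3 and all genes from 0 to 556, and in knockout mice members higher from 0 to 1, members lower from 0 to 1 and all genes from 0 to 1408. With no filter, the diet comparison over both genotypes called 1 member higher and 1262 genes, the wildtype one 0 members lower and 44 genes, the knockout one 0 genes and the genotype one on Western diet 3 genes. DESeq2 called 515 genes in wildtype and 230 in knockout mice by diet, with 1 member higher in knockout mice, and by genotype 3 genes on Western diet and 2 on chow. With L and M summed, the wildtype count was 116 genes and 0 members lower, and the knockout count 0 genes. Without the 4 libraries, 5 members were higher and 10 lower over both genotypes (4622 genes), 7 lower in wildtype mice (1339 genes), and 2 higher and 5 lower in knockout mice (2657 genes). With the acute phase covariate, 4 members were higher over both genotypes and 0 genes were called in knockout mice. With the letter as a replicate block, members higher over both genotypes were 4 and lower 0, wildtype members lower 0 (50 genes), knockout genes 0, and Gsta1 by genotype on Western diet stood at -0.02 against 0.91. For the covariate and block fits, the count of all genes over both genotypes is not given here, so their member counts have no background. The letters carry no pairing, and 2 of 15 wildtype Western diet libraries correlated best with their own letter. No member was called by genotype or interaction under any alternative run. With 4 and 5 chow mice, 1 library decides several calls, and depth limits Gsta1 and Slc7a11.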
